A study of Mus musculus with 34 samples.

Results

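The p53 target genes and BCL2 family genes described here were a list of 41 genes, whose rows were taken from the culture and tumour sets by symbol. Of the 41 genes, 37 were among the 16562 genes tested in MOSJ-Dkk1 cultures, 18 were among the 12595 genes tested in MOSJ-Dkk1 tumours, 17 were in both sets and 3 were in neither. Cdkn2a, Cdkn2b, Pmaip1 and Perp had no culture value, and Cdkn2b, Pmaip1 and Perp had no tumour value either. MOSJ-Dkk1 is a mouse osteochondral sarcoma line with a lentiviral cassette that makes human Dkk-1, an inhibitor of canonical Wnt signalling, from the cytomegalovirus promoter at all times. All groups carried this cassette, and no library of the line without it was analysed here. The transcript of the human cassette, at which DkkMo is directed, was not analysed here either.

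Cultures were in log phase after 6 days of growth with regular feeding, or under nutritional stress, in which confluent cells were held for 48 h and the medium was left in place for 4 days. In each condition there were 3 libraries without morpholino (NT), 3 with DkkMo, a morpholino directed at Dkk-1, and 3 with scrMo, its mismatched control. Per the labels morpholinos were at 5 µM and added 24 h after seeding, and a figure legend of the study gives a different dose of DkkMo for the log-phase cultures. Tumours grew in the hindlimbs of NU/J nude mice, which lack a thymus, and 4 tumours per group were sequenced: NT, doxorubicin (DRB), DkkMo and the combination of DRB with DkkMo. No tumour received scrMo. Tumours had been fixed in formaldehyde before RNA was extracted by a protocol for fixed tissue. They were dissected from bone and muscle together with their stroma, so host cells can contribute to the values. The labels do not say whether libraries of 1 culture group came from separate cultures. The titles of NT replicates 2 and 3 under stress carry the same sample number. The p-values in cultures measure the spread between these libraries, which may be technical. Below, each culture library is called a culture, whether or not it came from a separate one.

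p53 is a transcription factor that is held low by the ubiquitin ligase Mdm2 and its partner Mdm4, and that accumulates after DNA damage and other stress. It then switches on genes that stop the cell cycle, repair DNA, adjust metabolism or prepare the cell for death, Mdm2 among them as a feedback. The BCL2 family sets the threshold for death at the mitochondrion, where BH3-only proteins free or activate the pore formers Bax and Bak1, and Bcl2, Bcl2l1 and Mcl1 restrain them. The values below are mRNA levels, which do not measure the activity of p53, and many of these genes are also driven by other factors.

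p53 binds DNA at the p53 response element, a pair of decamers. The 300 bases around annotated starts, 250 upstream and 50 downstream, were searched for adjacent decamers with up to 2 mismatches in all. The fixed C and G inside each decamer had to match, and the element reads alike on both strands. Windows from RefSeq (GRCm38.p6) were matched for 33 of the 41 genes, and 8 genes had no entry. Such an element was present in 107 of all 32851 windows (0.326%) and in 2 of the 48 windows of these genes, those of Ccng1 and Cdkn1a, each with 1 mismatch. Both are shown 5′ to 3′ on the strand of the gene because these genes are followed through the cultures below, and capitals mark the match. A match is a description of the letters in the window and not evidence of binding.
Ccng1, chr11:40755237-40755536, minus strand: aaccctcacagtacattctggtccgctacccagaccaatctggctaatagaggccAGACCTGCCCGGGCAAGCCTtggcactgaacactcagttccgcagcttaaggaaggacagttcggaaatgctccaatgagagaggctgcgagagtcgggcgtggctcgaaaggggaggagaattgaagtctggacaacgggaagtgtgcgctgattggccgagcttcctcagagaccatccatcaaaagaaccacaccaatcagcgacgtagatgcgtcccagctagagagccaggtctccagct
Cdkn1a, chr17:29090729-29091028, plus strand: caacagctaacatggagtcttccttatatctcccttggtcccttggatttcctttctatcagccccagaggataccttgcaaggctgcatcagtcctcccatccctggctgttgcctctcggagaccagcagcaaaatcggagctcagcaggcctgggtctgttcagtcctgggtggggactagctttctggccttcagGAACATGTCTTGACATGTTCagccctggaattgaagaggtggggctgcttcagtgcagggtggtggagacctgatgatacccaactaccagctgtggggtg

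Culture libraries held 25.9 to 44.8 M reads and tumour libraries 26.9 to 125 M reads (M, 1000000). Replicate cultures were alike, with Spearman correlations of at least 0.992 across genes. The 4 NT tumours correlated with each other at 0.249 to 0.757. The 10 most abundant genes took 46.7 to 73.5% of the reads of DRB tumours against 13.5 to 18.6% of those of combination tumours. In cultures 9 of 14 osteosarcoma and osteochondral lineage markers had a value, as did 6 of 12 macrophage, 5 of 12 skeletal muscle, 3 of 8 endothelial, 0 of 8 neutrophil and 0 of 7 T and B cell markers. The lineage markers summed to 252378 to 283922 normalised read counts in log-phase NT and 84163 to 91040.4 in stress NT cultures, where 4 of the 9 were DE and lower and 2 DE and higher than in log phase. The macrophage, muscle and endothelial markers summed to at most 2569.6, 1243 and 1962 in any culture. Levels below are normalised read counts. Differences are on the log2 scale of the deposited values, which compresses changes of genes with low counts, and a gene is called DE when it differed by over 1.5-fold on that scale with an adjusted p below 0.05. Folds are ratios of mean normalised read counts. In bulk RNA, fewer cells with a transcript and less transcript per cell cannot be told apart.

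Per kilobase of exon, these genes spanned a wide range in cultures. The normalised read count per kilobase, averaged over the 18 cultures, was 5439 for Plk2, 3398 for Mdm2, 2977 for Ephx1, 2878 for Mcl1 and 2558 for Cdkn1a, and the lowest were 88.5 for Bcl2, 75.4 for Bmf and 72.4 for Rrm2b. Bax stood far above all of these at 106239 per kilobase. Its normalised read counts of 113530.0 to 224636 followed those of Gm10252, a gene model that overlaps Ftl1, the ferritin light chain gene next to Bax, at a ratio of 1.02 to 1.07 in all 18 libraries. Ftl1 itself had no culture value, so the culture values listed for Bax are given with the reserve that the gene they come from was not tested.

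Under nutritional stress, cultures that had received either morpholino held more mRNA of many p53 target genes than NT cultures did. Between scrMo and NT, 11 of 37 genes were DE against 4.43% of all genes tested, and 10 of them were higher against 1.90% of all genes. Between DkkMo and NT, 5 of 37 were DE against 2.66% of all genes, and 4 were higher against 1.12%. The 4 genes higher with DkkMo, Trp53inp1, Ccng1, Ephx1 and Eda2r, were also among the 10 higher with scrMo, and Plk3 was lower with both; both comparisons use the same NT cultures. Groups without overlap were common in these comparisons, with 32 of 37 genes against 63.5% of all genes for scrMo and 34 of 37 against 59.4% for DkkMo. By adjusted p alone, 19 genes were higher and 3 lower with scrMo, against 22.1% and 24.7% of all genes. With DkkMo, 18 were higher and 6 lower, against 19.0% and 22.7%. The median log2 difference of the 37 genes was 0.20 with scrMo and 0.16 with DkkMo. The medians of all genes were 0.00 and -0.01.

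**Figure D1:**
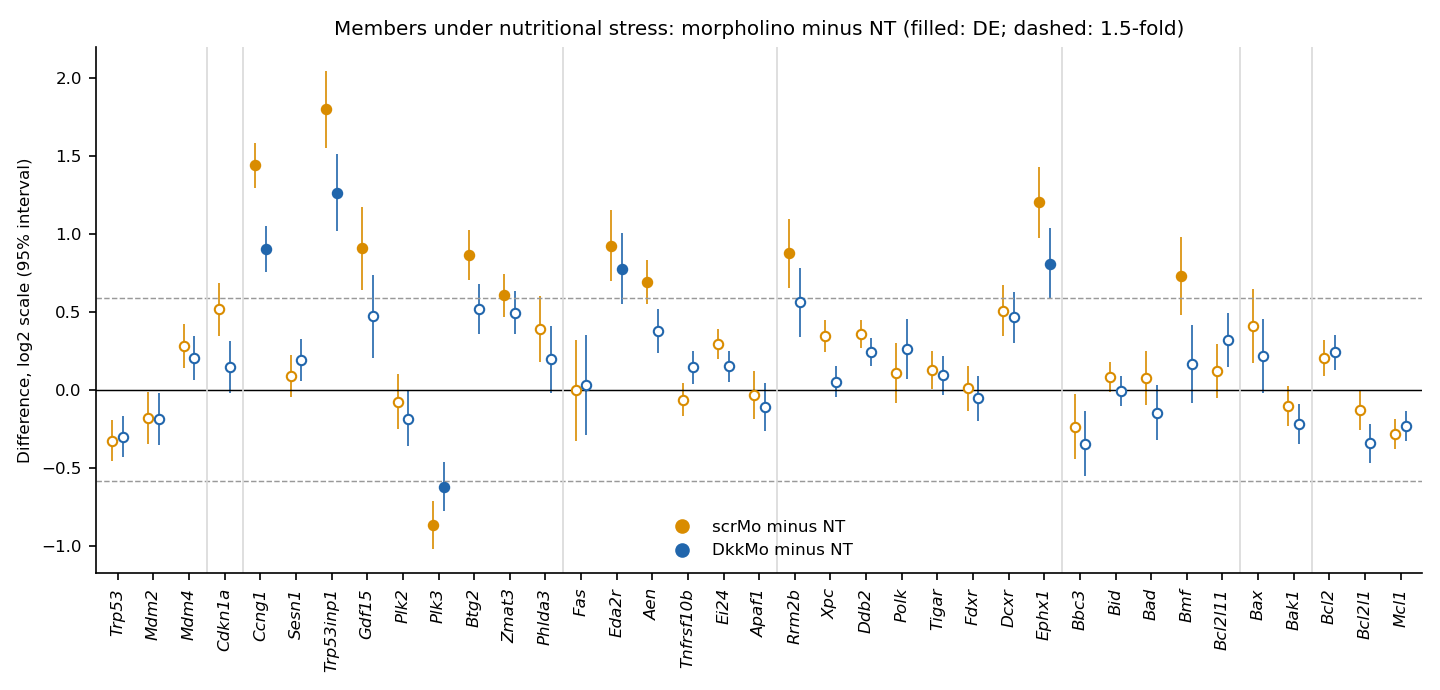
Difference from NT under nutritional stress for the 37 genes with a culture value (y axis, log2 scale of the deposited values, with 95% intervals), scrMo in orange and DkkMo in blue, ordered by role along the x axis. Filled points are DE and dashed lines mark 1.5-fold; Trp53inp1 lies highest, at 1.80 with scrMo and 1.26 with DkkMo, and Plk3 lowest.

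Trp53inp1 (GRCm38 chr4:11156431-11174379, plus strand), which encodes a stress-induced nuclear protein with roles in autophagy and cell death, showed the largest difference. Its normalised read counts under stress were 3197, 2788 and 3054 in the NT cultures, 10380.4, 11670.1 and 11470.1 with scrMo and 6958, 8174 and 7762 with DkkMo. The scrMo cultures lay above the DkkMo cultures and these above the NT cultures, without overlap. The mean was 3.71-fold that of NT with scrMo (log2 difference 1.80 ± 0.12 (SE), limma adjusted p = 1.3e-09) and 2.53-fold with DkkMo (log2 difference 1.26 ± 0.12 (SE), limma adjusted p = 2.03e-07). In log phase the counts were 2562, 2523 and 2186 in the NT cultures, 2907, 4229 and 3960.2 with scrMo and 2453, 3274 and 3511 with DkkMo, and neither morpholino group was DE against NT.

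Ccng1, which encodes cyclin G1, a partner of protein phosphatase 2A in the control of Mdm2, followed the same order, and its promoter window holds the element printed above. Its stress counts were 3709, 3540.2 and 3811 in the NT cultures, 9619, 11336 and 10528 with scrMo and 7228, 7423 and 6793 with DkkMo. The 3 groups did not overlap, and the mean rose 2.85-fold over NT with scrMo (log2 difference 1.44 ± 0.07 (SE), limma adjusted p = 2.71e-11) and 1.94-fold with DkkMo (log2 difference 0.90 ± 0.07 (SE), limma adjusted p = 2.31e-08). In log phase the counts lay closer together, at 6124, 5932 and 5470.0 in the NT cultures, 5664, 6249 and 6405 with scrMo and 6799.6, 7091 and 8073 with DkkMo.

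Cdkn1a, which encodes the cyclin-dependent kinase inhibitor p21 and is the most used read-out of p53, moved less. The window of its upstream start holds the other element printed above. Under stress its normalised read counts were 7127, 7566 and 7427 in the NT cultures, 10044, 11023 and 10947 with scrMo and 8466, 8166 and 7908 with DkkMo. With scrMo all 3 libraries lay above the other 6, but the difference from NT fell short of 1.5-fold (log2 difference 0.52 ± 0.08 (SE), limma adjusted p = 4.07e-05). That between DkkMo and NT did not pass the test (log2 difference 0.14 ± 0.08 (SE), limma adjusted p = 0.161). In log phase the counts were 8578, 8473 and 7647 in the NT cultures, 11555, 8831 and 9871 with scrMo and 10971, 9073 and 9927 with DkkMo. Both morpholino groups were higher than NT by adjusted p, with log2 differences of 0.28 (limma adjusted p = 0.0157) for scrMo and 0.27 (limma adjusted p = 0.0405) for DkkMo.

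Among the other growth arrest targets, Gdf15, a secreted cytokine of the TGF-beta superfamily, and Btg2, an antiproliferative cofactor of mRNA deadenylation, rose with scrMo under stress. Gdf15 had stress counts of 1106, 1152 and 1240.4 in the NT cultures, 2265, 2477 and 2519 with scrMo and 1717, 1442 and 2042 with DkkMo. The scrMo mean was 2.08-fold that of NT (log2 difference 0.91 ± 0.13 (SE), limma adjusted p = 1.19e-05). In log phase its counts were 1184, 948 and 896 in the NT cultures, 2356, 1837 and 1564 with scrMo and 2157, 1495 and 1772 with DkkMo. Gdf15 was the gene that was DE with both morpholinos in log phase, at 0.77 (limma adjusted p = 0.000183) for scrMo and 0.70 (limma adjusted p = 0.00136) for DkkMo. Under stress it was DE with scrMo only. Btg2 had stress counts of 458, 529.9 and 428 in the NT cultures, 1055, 1032 and 1088 with scrMo and 774, 749 and 817 with DkkMo. The scrMo mean was 2.24-fold that of NT (log2 difference 0.86 ± 0.08 (SE), limma adjusted p = 4.75e-08). Its log-phase counts were 816, 709.9 and 604 in the NT cultures, 776, 671 and 726 with scrMo and 1152, 932 and 1071 with DkkMo, where the DkkMo cultures were the highest group. Zmat3, an RNA-binding zinc finger protein, was the gene of the 10 closest to the threshold and fell under it with centred libraries (0.56), with stress counts of 4683, 4245 and 4763 in the NT cultures, 6775, 7243 and 7242 with scrMo and 6344, 6709 and 6562 with DkkMo (log2 difference 0.61 ± 0.07 (SE), limma adjusted p = 5.75e-07).

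Plk2 and Plk3, polo-like kinases that respond to stress, went another way. Plk3 had stress counts of 4546, 5103 and 4715 in the NT cultures, 2777, 2309 and 2404 with scrMo and 3014, 2918 and 3098 with DkkMo. The mean was 1.92-fold lower than NT with scrMo (log2 difference -0.87 ± 0.07 (SE), limma adjusted p = 3.12e-08) and 1.59-fold lower with DkkMo (log2 difference -0.62 ± 0.07 (SE), limma adjusted p = 3.23e-06). In log phase, by contrast, the counts of Plk3 were 1414, 1508 and 1398 in the NT cultures, 2554, 2761 and 2499 with scrMo and 1385, 1122 and 1465 with DkkMo. The scrMo cultures were the high group (scrMo against NT, log2 difference 0.75 ± 0.07 (SE), limma adjusted p = 6.17e-07). Plk2 had log-phase counts of 17349, 16511 and 15019 in the NT cultures, 27020.2, 27179 and 26279.9 with scrMo and 23642, 18172 and 24478 with DkkMo. It was DE between scrMo and NT there (log2 difference 0.71 ± 0.08 (SE), limma adjusted p = 4.84e-06). Its stress counts, 28792, 27510.3 and 30107 in the NT cultures, 26551, 27332 and 27957 with scrMo and 25380.1, 25080.2 and 25353 with DkkMo, differed between scrMo and NT by -0.08 on the log2 scale, which did not pass the test (limma adjusted p = 0.476). Sesn1, a sestrin that restrains mTORC1, and Phlda3, an inhibitor of Akt, were not DE between any morpholino group and NT. Over the 18 cultures Sesn1 ranged from 438 to 776 and Phlda3 from 2088 to 4557 normalised read counts.

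**Figure D2:**
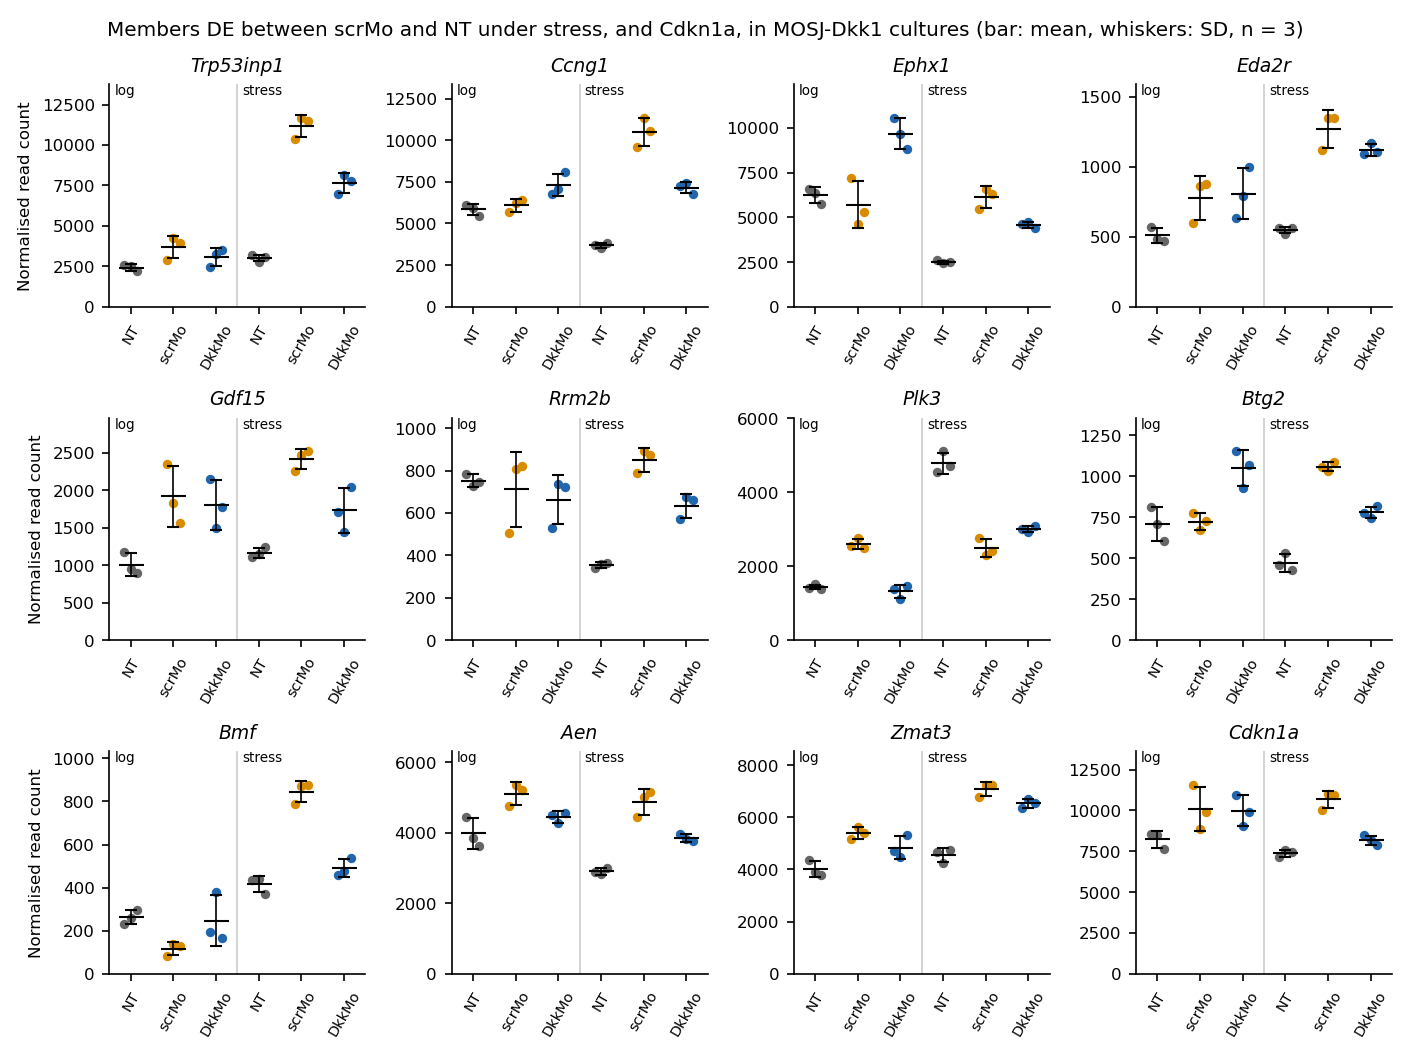
Normalised read counts (y axis, linear from 0) of the 11 genes DE between scrMo and NT under stress and of Cdkn1a in each of the 18 cultures, by treatment within log phase and stress (x axis; points are libraries, bars means and whiskers SD, n = 3). For Trp53inp1 and Ccng1 under stress, scrMo points lie above DkkMo points and DkkMo points above NT points, and for Plk3 the NT points are the highest.

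Genes of the cell death branch rose in part. Eda2r, a receptor of the tumour necrosis factor receptor family, had stress counts of 563, 521 and 561 in the NT cultures, 1115, 1347 and 1345 with scrMo and 1087, 1165 and 1103 with DkkMo. Its mean was 2.31-fold that of NT with scrMo (log2 difference 0.92 ± 0.11 (SE), limma adjusted p = 1.66e-06) and 2.04-fold with DkkMo (log2 difference 0.78 ± 0.11 (SE), limma adjusted p = 1.85e-05). Aen, an apoptosis-enhancing nuclease, had stress counts of 2882, 2827 and 3002 in the NT cultures, 4447, 5010.2 and 5166 with scrMo and 3965, 3811 and 3768 with DkkMo. It was DE with scrMo (log2 difference 0.69 ± 0.07 (SE), limma adjusted p = 1.67e-07). The death receptor gene Fas was not past the test between treatments under stress, where all 9 cultures lay between 169 and 227 normalised read counts, and the interval of its scrMo minus NT difference was -0.33 to 0.32 on the log2 scale. Tnfrsf10b, the mouse TRAIL receptor, Ei24 and Apaf1, which forms the apoptosome, were not DE in any comparison between treatments, with ranges over the 18 cultures of 1241 to 1939.8, 1354 to 1805 and 1368 to 2453 normalised read counts.

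In the repair and metabolism branch, Ephx1, the microsomal epoxide hydrolase (GRCm38 chr1:180976210-181020904, minus strand), and Rrm2b, the p53-dependent subunit of ribonucleotide reductase, rose with scrMo under stress. Ephx1 had stress counts of 2585, 2426 and 2481 in the NT cultures, 5444, 6609 and 6313 with scrMo and 4598, 4739 and 4408 with DkkMo. Its mean was 2.45-fold that of NT with scrMo (log2 difference 1.20 ± 0.11 (SE), limma adjusted p = 6.04e-08) and 1.83-fold with DkkMo (log2 difference 0.81 ± 0.11 (SE), limma adjusted p = 1.17e-05). Its log-phase counts were 6597, 6378 and 5738 in the NT cultures, 7195, 4644 and 5291 with scrMo and 10554, 9658 and 8816 with DkkMo, so that DkkMo, and not scrMo, was the high group there (DkkMo against NT, log2 difference 0.61 ± 0.11 (SE), limma adjusted p = 0.00112). Rrm2b had stress counts of 341, 358 and 365 in the NT cultures, 787, 889.9 and 875 with scrMo and 570.2, 673 and 661 with DkkMo. The scrMo mean was 2.40-fold that of NT (log2 difference 0.87 ± 0.11 (SE), limma adjusted p = 2.16e-06). Its log-phase counts were 786, 726 and 746 in the NT cultures, 506, 806 and 821 with scrMo and 529, 735 and 722 with DkkMo, and those groups overlapped. Dcxr, a carbonyl reductase, had stress counts of 164, 181 and 156 in the NT cultures, 285, 325 and 359.6 with scrMo and 308, 331 and 282 with DkkMo. It passed the adjusted p with both morpholinos and fell short of 1.5-fold on the log2 scale (0.51 and 0.46). The DNA damage recognition genes Xpc and Ddb2 were also higher with scrMo by adjusted p, at 0.34 (limma adjusted p = 1.06e-05) and 0.36 (limma adjusted p = 2.58e-06). Polk, a translesion polymerase, Tigar, a regulator of glycolysis, and Fdxr, ferredoxin reductase, differed from NT by 0.11, 0.13 and 0.01 with scrMo and were not DE. Over the 18 cultures the normalised read counts ranged from 936 to 1666 for Xpc, 757 to 1152 for Ddb2, 1488 to 2603 for Polk and 542 to 898 for Tigar.

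The mRNA of p53 itself and of Mdm2 was not higher with the morpholinos under stress. Trp53 had stress counts of 4042, 4131 and 4073 in the NT cultures, 3101, 3213 and 3275 with scrMo and 3419, 3235 and 3127 with DkkMo. All 6 morpholino cultures lay below the NT cultures (scrMo against NT, log2 difference -0.33 ± 0.06 (SE), limma adjusted p = 0.000272; DkkMo against NT, log2 difference -0.30 ± 0.06 (SE), limma adjusted p = 0.000739). Mdm2 had stress counts of 21533, 21817 and 22102 in the NT cultures, 19414, 18984 and 19185 with scrMo and 18915, 19537 and 18854 with DkkMo. Here too the 6 morpholino cultures lay below the 3 NT cultures, and the difference between scrMo and NT did not pass the test (log2 difference -0.18 ± 0.08 (SE), limma adjusted p = 0.0677). Mdm4, which ranged from 4629.8 to 6458 over the 18 cultures, was higher with scrMo by adjusted p (0.28, limma adjusted p = 0.00207). In log phase Trp53 had counts of 5868, 5601 and 5599 in the NT cultures, 6544, 6152 and 5901 with scrMo and 6050.0, 4858 and 5196 with DkkMo. Mdm2 had log-phase counts of 13438, 11661 and 11083 in the NT cultures, 15583, 16495 and 18116 with scrMo and 13959.5, 13335 and 16893 with DkkMo. For Mdm2 the scrMo cultures lay above the NT cultures (log2 difference 0.46 ± 0.08 (SE), limma adjusted p = 0.000257).

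Of the BCL2 family, 1 gene was DE between scrMo and NT under stress. Bmf, a BH3-only gene whose product is released from the cytoskeleton under stress, had stress counts of 434, 439 and 372 in the NT cultures, 788, 869.7 and 877 with scrMo and 458, 478 and 539 with DkkMo. The scrMo mean was 2.04-fold that of NT (log2 difference 0.73 ± 0.12 (SE), limma adjusted p = 6.75e-05). In log phase Bmf had counts of 233, 258 and 297 in the NT cultures, 80.5, 137 and 128 with scrMo and 192, 381 and 167 with DkkMo. There the scrMo cultures were the low group. Bcl2l11, which encodes the BH3-only protein Bim, had stress counts of 1845, 1999 and 2052 in the NT cultures, 2327, 2089.5 and 2061 with scrMo and 2254, 2705 and 2624 with DkkMo. It was higher with DkkMo by adjusted p (0.32, limma adjusted p = 0.00453). Bcl2l1, which encodes the inhibitor Bcl-xL, had stress counts of 6699, 6906 and 6805 in the NT cultures, 6046, 6218 and 6310.4 with scrMo and 5534, 5159 and 5195 with DkkMo. It was lower with DkkMo by adjusted p (log2 difference -0.35 ± 0.06 (SE), limma adjusted p = 0.000163) and not past the test with scrMo (log2 difference -0.13 ± 0.06 (SE), limma adjusted p = 0.0833). In log phase its counts were 4936, 4634 and 4507 in the NT cultures, 7415, 6323 and 6571 with scrMo and 6064, 5242 and 5591 with DkkMo, and all 6 morpholino cultures lay above the NT cultures. Bcl2 had log-phase counts of 856, 811 and 816 in the NT cultures, 541, 597 and 548 with scrMo and 679.7, 733 and 785 with DkkMo. Its stress counts were 834, 737 and 822 in the NT cultures, 913, 978 and 973 with scrMo and 919, 1033 and 1008 with DkkMo. The scrMo cultures were below NT in log phase and above NT under stress. Mcl1 ranged from 8189 to 11904, Bbc3, which encodes the BH3-only protein Puma, from 702 to 1179, Bad from 881 to 1683 and the pore former Bak1 from 847 to 1421 normalised read counts over the 18 cultures, and none of these 4 was DE between treatments. Bax counts under stress were 159845, 175821 and 164267 in the NT cultures, 214979, 224636 and 223298 with scrMo and 198210.0, 186775 and 194863 with DkkMo, subject to the reserve given above. They were not DE with either morpholino.

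**Figure D3:**
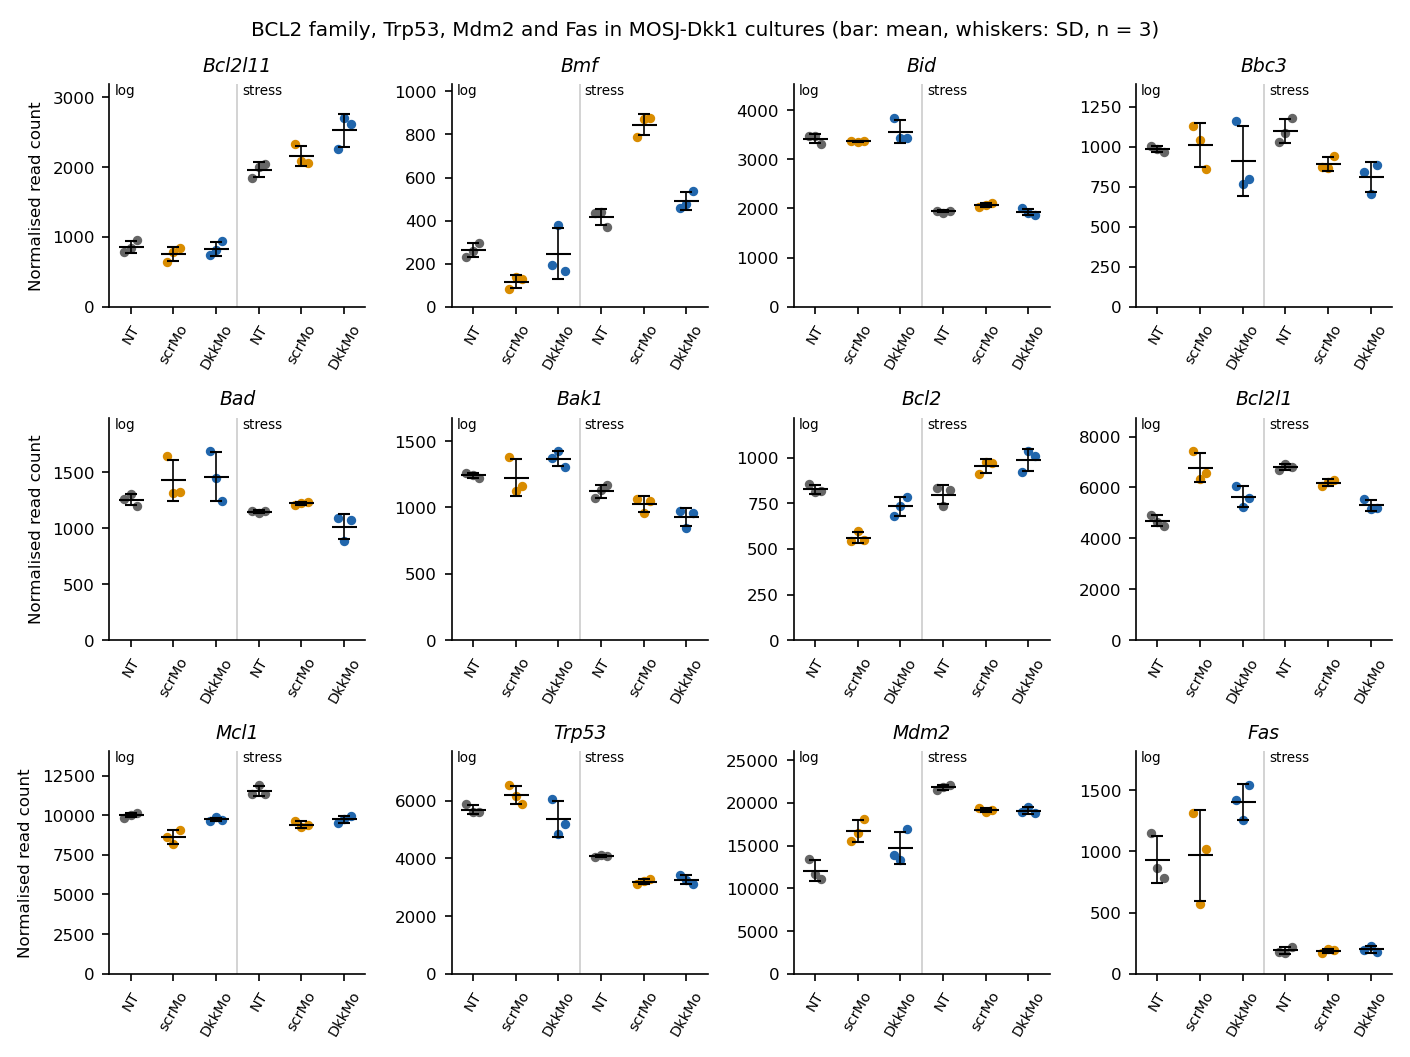
Normalised read counts (y axis, linear from 0) of 9 BCL2 family genes and of Trp53, Mdm2 and Fas in each of the 18 cultures, by treatment within log phase and stress (x axis; points are libraries, bars means and whiskers SD, n = 3). Bcl2l11 is higher and Bid and Fas are lower in every stress group than in the log-phase groups, and the scrMo points of Bmf are the lowest group in log phase and the highest under stress.

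Other groups of genes also differed between scrMo and NT under stress. Of 14 interferon-stimulated genes with a value, 5 were DE and higher with scrMo, and their summed counts were 17954 to 19453 against 13873 to 15718 in NT, while in log phase all 14 were DE and lower with scrMo. None of 12 proliferation markers was DE under stress, with summed counts of 4207 to 4356 with scrMo and 4097 to 4259.8 in NT. In log phase 3 of the 12 were DE and lower with scrMo, with sums of 15342 to 18604 against 23213 to 27865 in NT. The part of these groups in the differences above was not tested.

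In log phase itself, the morpholino groups also differed from NT. Between scrMo and NT, 3 of 37 were DE against 2.45% of all genes (Gdf15, Plk3 and Plk2, all higher), and between DkkMo and NT 2 of 37 against 0.827% (Gdf15 and Ephx1, both higher). By adjusted p alone, 12 genes were higher and 7 lower with scrMo, against 11.8% and 14.6% of all genes. With DkkMo, 13 were higher and 0 lower in limma, against 5.36% and 4.46%. The change of the morpholino difference between log phase and stress was then tested directly, in contrasts added after the data were seen. For scrMo minus NT, 12 of 37 genes were DE in this contrast against 10.9% of all genes, and 8 had a more positive difference under stress against 5.55% of all genes. These were Ccng1 (1.38, limma adjusted p = 4e-09), Ephx1 (1.34, limma adjusted p = 1.36e-06), Bmf (1.30, limma adjusted p = 5.89e-06), Trp53inp1 (1.25, limma adjusted p = 7.7e-06), Rrm2b, Btg2, Dcxr and Bcl2. Plk3 (-1.62, limma adjusted p = 1.11e-09), Plk2, Mdm2 and Bcl2l1 had a more negative difference under stress. For DkkMo minus NT, 5 of 37 were DE against 3.92% of all genes, with a more positive difference under stress for Trp53inp1 (0.96, limma adjusted p = 0.000376), Rrm2b and Ccng1 and a more negative one for Plk2 and Bcl2l1.

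The comparison of DkkMo with scrMo sets the morpholino directed at Dkk-1 against its mismatched control. In log phase, 2 of 37 genes were DE against 1.97% of all genes, with the log-phase counts given above. Ephx1 was 1.69-fold higher in the mean with DkkMo (log2 difference 0.75 ± 0.11 (SE), limma adjusted p = 6.68e-05), and Plk3 was 1.97-fold lower (log2 difference -0.86 ± 0.07 (SE), limma adjusted p = 5.37e-07). By adjusted p, 11 genes were higher and 6 lower, against 14.3% and 9.20% of all genes. The median log2 difference was 0.04 against 0.00 over all genes. Beside this, 9 of 12 proliferation markers and 9 of 14 interferon-stimulated genes were DE and higher with DkkMo than with scrMo in log phase, and their part was not tested.

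Under stress, none of the 37 genes was DE between DkkMo and scrMo in limma, against 1.00% of all genes, and 17 had an unadjusted p below 0.05 against 32.6% of all genes. By adjusted p, 12 genes were lower with DkkMo, against 10.9% of all genes, and 2, Plk3 and Tnfrsf10b, were higher, against 9.97%. The 12 were Bmf, Trp53inp1, Ccng1, Gdf15, Ephx1, Cdkn1a, Btg2, Aen, Rrm2b, Xpc, Bcl2l1 and Ei24, of which 8 were among the genes DE and higher with scrMo than NT. These comparisons share the scrMo cultures. The log2 differences were -0.53 (limma adjusted p = 2.45e-05) for Ccng1, -0.53 (limma adjusted p = 0.00291) for Trp53inp1, -0.37 (limma adjusted p = 0.00264) for Cdkn1a and -0.57 (limma adjusted p = 0.00212) for Bmf. Bmf lay just under 1.5-fold on the deposited scale, whereas its mean count was 1.72-fold lower with DkkMo, and it was the 1 gene called both on log2 of the count plus 1 and by limma voom. Without scrMo replicate 1, which was the lowest scrMo library for Trp53inp1, Ccng1 and Bmf, these 3 genes were DE, and without DkkMo replicate 3 Bmf was. The median log2 difference was -0.11 against 0.00 over all genes.

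The DkkMo minus scrMo difference itself changed between the culture conditions for 5 of 37 genes, against 3.70% of all genes. It was more negative under stress for Ephx1 (-1.14, limma adjusted p = 3.92e-05), Bmf (-1.06, limma adjusted p = 0.000217), Ccng1 (-0.78, limma adjusted p = 2.32e-05) and Btg2 (-0.76, limma adjusted p = 7e-05), and more positive for Plk3 (1.10, limma adjusted p = 1.14e-06).

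Nutritional stress lowered Fas and Bid and raised Bcl2l11 in each treatment. Between stress and log phase, 10 of 37 genes were DE in NT against 18.1% of all genes, 9 with scrMo against 10.7% and 9 with DkkMo against 16.5%. In NT, 4 were higher and 6 lower, against 8.22% and 9.90% of all genes. With scrMo 5 were higher and 4 lower, against 4.38% and 6.28%, and with DkkMo 4 and 5, against 6.24% and 10.2%. With each library centred on its median, the median difference of all genes moved by 0.16, 0.07 and 0.16. The splits became 6 higher and 3 lower in NT, 7 and 2 with scrMo and 4 and 3 with DkkMo. Shares of all genes called with centred libraries are not given here. No gene called DE changed sign. In that setting Bid fell under 1.5-fold in NT (-0.58) and with scrMo (-0.57), and so did Ccng1 (-0.47) and Rrm2b (-0.58) in NT, Fdxr with scrMo (-0.53) and with DkkMo (-0.50), and Trp53 with DkkMo (-0.50), all still below an adjusted p of 0.05. Proliferation markers fell in the same contrast: 12 of 12 in NT, 11 with scrMo and 12 with DkkMo were DE and lower under stress. In NT the markers had summed counts of 4097 to 4259.8 against 23213 to 27865, and their part in these changes was not tested.

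Fas fell most. Its log-phase counts were 1149.8, 861 and 782 in the NT cultures, 1311, 572 and 1022 with scrMo and 1417, 1253 and 1542 with DkkMo. Its stress counts were 179, 172 and 220.0 in the NT cultures, 169, 202 and 195 with scrMo and 195, 227 and 173 with DkkMo. No stress library reached any log-phase library, and the mean fell 4.89-fold in NT (log2 difference -1.46 ± 0.15 (SE), limma adjusted p = 8.53e-08), 5.13-fold with scrMo (log2 difference -1.48 ± 0.15 (SE), limma adjusted p = 1.46e-07) and 7.08-fold with DkkMo (log2 difference -1.93 ± 0.15 (SE), limma adjusted p = 2.2e-09). Bid, a BH3-only gene whose product links death receptors to mitochondria, fell from log-phase counts of 3472, 3475 and 3310.4 in the NT cultures, 3367, 3353 and 3369 with scrMo and 3839, 3428 and 3422 with DkkMo to stress counts of 1956, 1916 and 1948 in the NT cultures, 2034, 2059 and 2108 with scrMo and 2002, 1908 and 1866 with DkkMo. The decrease was 1.76-fold in NT (log2 difference -0.74 ± 0.05 (SE), limma adjusted p = 5.29e-11), 1.63-fold with scrMo and 1.85-fold with DkkMo. In the opposite direction, Bcl2l11 rose from log-phase counts of 780.4, 843 and 949 in the NT cultures, 642, 779 and 835 with scrMo and 747, 807 and 939 with DkkMo, by 2.29-fold in NT (log2 difference 0.99 ± 0.08 (SE), limma adjusted p = 3.34e-09), 2.87-fold with scrMo and 3.04-fold with DkkMo. Bmf rose 7.32-fold with scrMo (log2 difference 1.70 ± 0.12 (SE), limma adjusted p = 7.87e-10) and 1.99-fold with DkkMo (log2 difference 0.64 ± 0.12 (SE), limma adjusted p = 0.000107). In NT its log2 difference of 0.40 passed the adjusted p but not 1.5-fold.

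**Figure D4:**
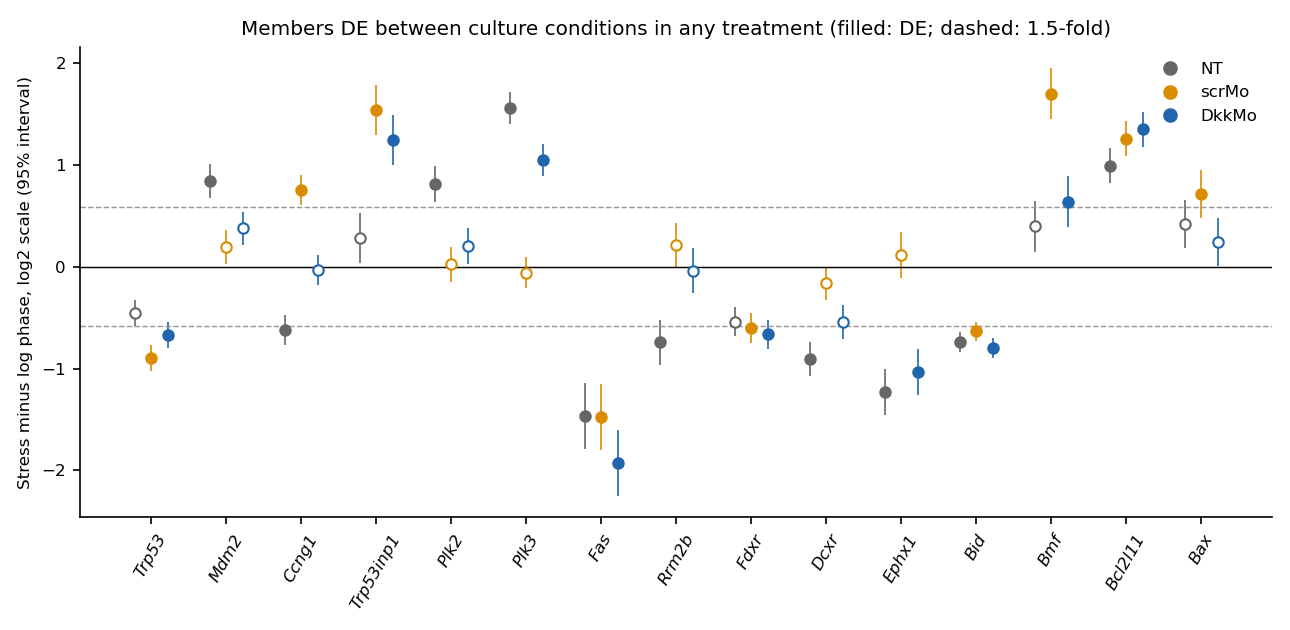
Difference between nutritional stress and log phase (y axis, log2 scale of the deposited values, with 95% intervals) for the 15 genes DE between the conditions in NT (grey), scrMo (orange) or DkkMo (blue) cultures. Filled points are DE and dashed lines mark 1.5-fold; Fas and Bid are lower and Bcl2l11 is higher in all 3 treatments, whereas Ccng1 is lower in NT and higher with scrMo.

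Other p53 targets changed under stress in some treatments and not in others. In NT, Plk3 rose 3.32-fold (log2 difference 1.56 ± 0.07 (SE), limma adjusted p = 1.21e-12), Mdm2 1.81-fold (log2 difference 0.84 ± 0.08 (SE), limma adjusted p = 1.77e-08) and Plk2 1.77-fold, whereas Ephx1 fell 2.50-fold (log2 difference -1.23 ± 0.11 (SE), limma adjusted p = 7.02e-09), Dcxr 2.98-fold, Rrm2b 2.12-fold and Ccng1 1.58-fold (log2 difference -0.62 ± 0.07 (SE), limma adjusted p = 2.03e-07). Dcxr had log-phase counts of 450.1, 534 and 511 in the NT cultures, 451, 397 and 324 with scrMo and 615, 570.1 and 473 with DkkMo. With scrMo, Ccng1 rose 1.72-fold (log2 difference 0.75 ± 0.07 (SE), limma adjusted p = 3.19e-08), Trp53inp1 3.02-fold (log2 difference 1.54 ± 0.12 (SE), limma adjusted p = 2.32e-09) and the values listed for Bax 1.63-fold (log2 difference 0.72 ± 0.11 (SE), limma adjusted p = 2.05e-05). Bax had log-phase counts of 126751, 127010.0 and 119398 in the NT cultures, 161403, 131698 and 113530.0 with scrMo and 186829, 163092 and 141374 with DkkMo. Trp53 fell 1.94-fold with scrMo (log2 difference -0.90 ± 0.06 (SE), limma adjusted p = 6.18e-10) and Fdxr 1.87-fold. With DkkMo, Trp53inp1 rose 2.48-fold and Plk3 2.27-fold, and Ephx1 fell 2.11-fold, Trp53 1.65-fold and Fdxr 2.00-fold. Fdxr had log-phase counts of 617, 675 and 543 in the NT cultures, 723, 665 and 576 with scrMo and 719.7, 661 and 581 with DkkMo. Its stress counts were 328, 345 and 368 in the NT cultures, 359, 347 and 345 with scrMo and 307, 321 and 350.5 with DkkMo, with no overlap between the conditions. The change of Ccng1 between conditions thus differed between scrMo and NT cultures, as the contrast above had tested, and that of Plk3 differed in the other direction.

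Further genes of the pathway were counted in lists by role. Between scrMo and NT under stress, 4 of 32 other p53 target genes were DE and higher, led by Psrc1 (1.24) and Trp53inp2 (1.01). Of the same 32 genes 1, not named here, was DE and lower. The shares of all genes were 1.90% DE and higher and 2.54% DE and lower. Of 16 p53 regulators and DNA damage kinases 1 was higher, Chek2 (0.60), which encodes a checkpoint kinase, and none of 5 other BCL2 family genes, 17 caspase, apoptosome and inhibitor of apoptosis genes or 18 cell cycle arrest partners was DE. Between DkkMo and NT under stress, Psrc1 (0.66) and Trp53inp2 (0.61) were the other p53 targets that were higher, and Steap3 (-0.60) the 1 that was lower. Of all genes, 1.12% were DE and higher there and 1.54% DE and lower. Between stress and log phase in NT, where 8.22% of all genes were DE and higher and 9.90% DE and lower, 4 of the 32 other p53 targets were higher, led by Ccng2 (0.88) and Gadd45a (0.71), and 10 of the 32 were lower, led by Gtse1 (-2.03) and Sulf2 (-1.38). In the same contrast, 2 of the 17 caspase, apoptosome and inhibitor of apoptosis genes were higher and 3 were lower. Cflar (1.07), an inhibitor of caspase-8, was higher. The lower ones were led by Birc5 (-2.36), which encodes survivin and is itself a gene of dividing cells, and Birc3 (-1.01). The list of 18 cell cycle arrest partners also holds cyclins, which drive division. Of the 18 genes 6 were lower, led by the cyclin genes Ccna2 (-1.81) and Ccnd1 (-1.30), and none was higher. All 12 proliferation markers were DE and lower in this contrast too. All these values are log2 differences in limma.

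In the tumours the 18 genes with a value varied widely between animals of 1 group. Mdm2 had normalised read counts of 8249, 539, 7456 and 111413 in NT, 89676, 276, 13946 and 462 in DRB, 752, 3813, 1902 and 166 in DkkMo and 155, 0, 124 and 252 in combination tumours. NT replicate 4 was the highest NT tumour for 16 of the 18 genes, and its library correlated with the other NT tumours at 0.249 to 0.481 across all genes. Macrophage markers, 5 of 12 with a value, summed to 9548 to 369619 counts over the 16 tumours, none of 7 T and B cell markers had a value, and osteosarcoma and osteochondral markers, 11 of 14, summed to 21129 to 3476370. The genes with a tumour value were long, with a median span of 34165 bases against 9752 for the 23 without one. Trp53, Cdkn1a, Trp53inp1, Gdf15, Eda2r, Bmf, Bcl2l11 and Mcl1 were among the 23 and are not described in tumours.

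None of the 18 genes was DE in limma between DRB and NT, between DkkMo and NT or between the combination and DkkMo, where 0% of all genes were DE in each. At an unadjusted p below 0.05 there were 1 gene between DRB and NT against 11.9% of all genes, 3 between DkkMo and NT against 12.3% and 0 between the combination and DkkMo against 1.19%, and no other setting called any gene in the latter pair of comparisons. Zmat3 was the gene between DRB and NT, with counts of 901, 910.4, 1294 and 9302 in NT, 12565, 12212, 24536 and 2278 in DRB, 4182, 8739, 2661 and 2623 in DkkMo and 1573, 5617, 2501 and 3659 in combination tumours. The 4 DRB tumours lay above NT replicates 1 to 3, and DRB replicate 4 lay below NT replicate 4. The difference did not pass the test (difference of 2.32 ± 0.76 (SE) on the log2 scale, limma adjusted p = 0.235; exact permutation test, two-sided, p = 0.0571, n = 4 against 4). Without NT replicate 4, Zmat3 was DE. The 3 between DkkMo and NT were Polk, Sesn1 and Bcl2, with log2 differences of -2.72, -2.38 and -1.94 and limma adjusted p of at least 0.377.

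Sesn1 was the 1 gene of 18 that was DE between the combination and DRB, against 7.35% of all genes. Its counts were 538, 349, 1801 and 8104 in NT, 19469, 17648, 1360.1 and 1093 in DRB, 337, 741, 22.2 and 27.1 in DkkMo and 585, 103, 368 and 182 in combination tumours. Every combination tumour lay below every DRB tumour, and the mean was 31.9-fold lower (log2 difference -3.65 ± 1.07 (SE), limma adjusted p = 0.0444; exact permutation test, two-sided, p = 0.0286, n = 4 against 4, the smallest that 4 against 4 tumours can give). DRB replicates 1 and 2 were far above replicates 3 and 4. Normalised counts are reads divided by a size factor per library, so a low factor raises the counts of every gene. The factors were 0.461 and 0.448 in DRB replicates 1 and 2, the lowest of the 16 tumours, and 0.992 and 1.04 in replicates 3 and 4. With each library centred on its median, the Sesn1 log2 difference was -2.61. The part of the size factors in the fold and in the sums below was not tested. The sums of some lists of cell markers also differed between the combination and DRB. Skeletal muscle markers, 2 of 12 with a value, summed to 2549 to 10458 counts in DRB and 211 to 554 in combination tumours, and 1 was DE and lower. Macrophage markers summed to 15704 to 203849 and 9548 to 11962, with 1 of 5 DE and lower, and osteosarcoma and osteochondral markers to 115123 to 1630650.0 and 21129 to 105524, with 1 of 11 DE and lower. The sums of these lists did not overlap between the groups, and 6.92% of all genes were DE and lower. Of the 11 osteosarcoma and osteochondral markers, 7 were lower and 4 higher in value. Their median log2 difference was -0.48, against -0.71 for all genes. The sums of endothelial, osteoclast, neutrophil, erythroid and adipocyte markers overlapped. Median log2 differences were -0.55 for endothelial, 1.00 for osteoclast, 0.23 for neutrophil, -0.60 for erythroid and -0.41 for adipocyte markers. The part of the lists in the Sesn1 difference was not tested. The adjusted p rose above 0.05 on log2 of the count plus 1 (0.06), with each library centred on its median (0.0991) and by limma voom (0.185), and no gene was DE when DRB replicate 1 or 2 or any of the 4 combination tumours was left out.

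By the exact permutation test, run 72 times over 18 genes and 4 comparisons and not adjusted, 5 genes reached the smallest p of 0.0286 between the combination and DRB, each lower in every combination tumour than in every DRB tumour: Sesn1, Mdm2, Cdkn2a, Rrm2b and Bcl2. Groups without overlap were found for 20.4% of all genes in this comparison. Cdkn2a, which encodes the cyclin-dependent kinase inhibitor p16 and the Mdm2 antagonist Arf, had counts of 30, 6.78, 0 and 3004 in NT, 206, 23642, 277 and 10.6 in DRB, 8.15, 122, 17.3 and 49.7 in DkkMo and 2.05, 3.37, 3.93 and 5.71 in combination tumours. Rrm2b had counts of 267, 64.7, 0 and 7187 in NT, 158, 3015, 300.5 and 259.8 in DRB, 62, 108, 76.5 and 729.9 in DkkMo and 0, 0, 112 and 0 in combination tumours, so that 3 combination tumours had no read of this gene. Bcl2 had counts of 7314, 3630.0, 6671 and 85631 in NT, 68918, 6379, 17662 and 7110.1 in DRB, 4535, 5788, 918 and 2441 in DkkMo and 759, 5049.9, 2982 and 4509.8 in combination tumours. In limma the adjusted p was 0.0801 for Mdm2, 0.141 for Cdkn2a, 0.151 for Rrm2b and 0.0969 for Bcl2. Between the combination and DkkMo, Cdkn2a and Ephx1 reached the same exact p, with differences of -0.69 and -1.05 on the log2 scale and limma adjusted p of 1.00 and 1.00, and 2.93% of all genes had groups without overlap. The median log2 difference of the 18 genes between the combination and DRB was -1.50, and that of all genes -0.71. With each library centred on its median the median of all genes moved by 1.04, and the combination libraries, at 28.3 to 41.1 M reads, were shallower than the DRB libraries, at 85.3 to 106 M reads.

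Bcl2l1 had tumour counts of 5372, 1947, 2218 and 5858 in NT, 4043, 7104, 1145 and 815 in DRB, 1195, 2726, 808 and 2066 in DkkMo and 3714, 1102, 3020.0 and 2362 in combination tumours. Bax had tumour counts of 1052, 676, 4188 and 11631 in NT, 3587, 3211, 2429.9 and 150.1 in DRB, 721, 381, 2493 and 1021 in DkkMo and 1862, 697, 1952 and 794 in combination tumours. Their groups overlapped in all 4 comparisons. Over the 16 tumours the normalised read counts ranged from 2038 to 61643 for Mdm4, 0 to 136688 for Ccng1, 0 to 4173 for Fas, 0 to 9631 for Tnfrsf10b and 0 to 21604 for Ei24. They ranged from 121 to 19688 for Apaf1, 7.7 to 5742 for Ddb2, 21.9 to 31390.2 for Polk, 303 to 8295 for Ephx1 and 122 to 8191 for Bbc3. The test of whether the effect of DkkMo depended on DRB called none of the 18 genes in limma, against 0% of all genes. Zmat3, at -2.72 on the log2 scale, was the 1 gene with an unadjusted p below 0.05, against 6.77% of all genes. No other setting called a gene in this test.

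**Figure D5:**
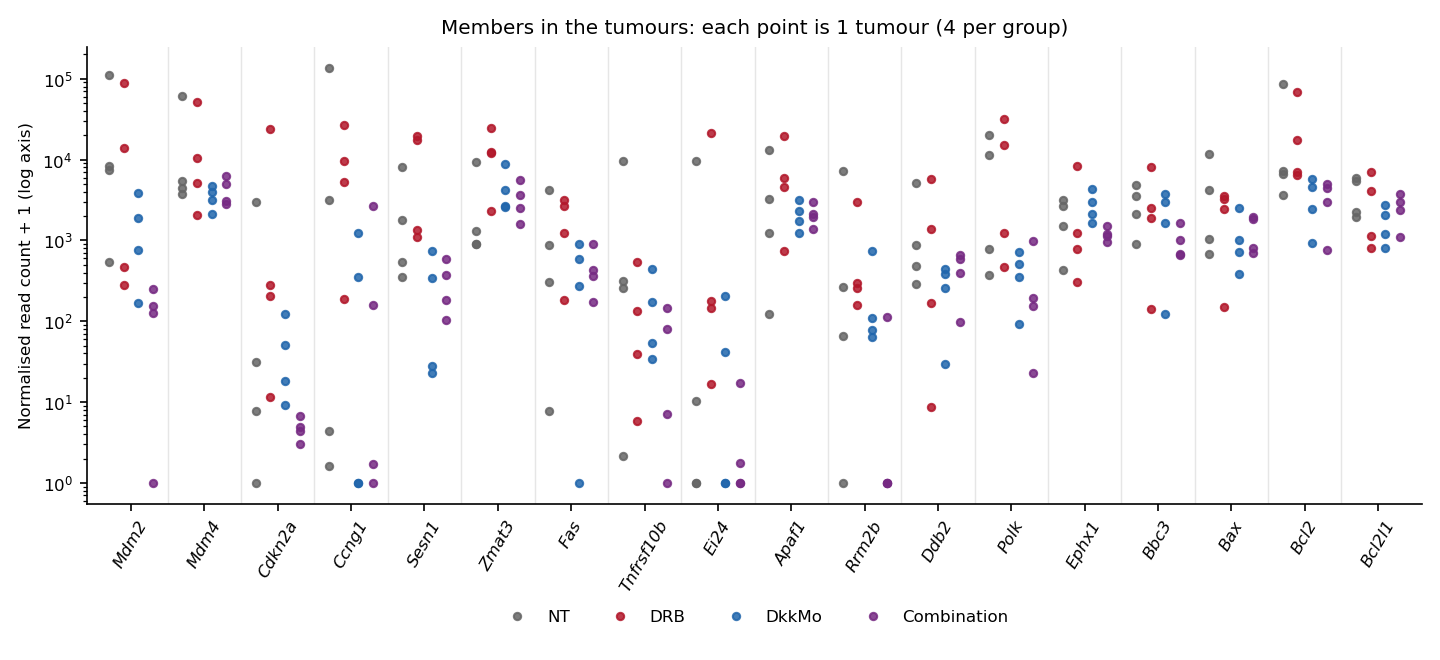
Normalised read count plus 1 (y axis, log scale) of the 18 genes with a tumour value in each of the 16 tumours (points; 4 per group), by gene (x axis) and treatment (colour). Values within a group span several orders of magnitude for genes such as Ccng1 and Mdm2, and for Sesn1 the 4 combination tumours, at 103 to 585, lie below the 4 DRB tumours, at 1093 to 19469.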

How the data were processed

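The RNA sequencing gave 18 culture libraries and 16 tumour libraries. Per the labels, the submitters' notes name HISAT2 2.1.0, SAMtools 1.9, StringTie, Subread 2.0.0 (featureCounts), DESeq2 and the build GRCm38. The deposited values are the authors' variance-stabilised values on a log2 scale, made separately for cultures and tumours, so levels were compared within a set only. The transform was reversed to normalised read counts and reads. Of the gene values of a library, 100% came out as whole reads in cultures and 97.0 to 99.7% in tumours (tolerance 0.05). In cultures 14 rows that spanned over 6 log2 units within a group were set aside, none of them a gene described here. Group means were compared with limma 3.58.1 (R 4.3.3) on the deposited values, with a trend and Benjamini-Hochberg adjustment over all genes tested. The fit was first tested on simulated data. DE meant adjusted p below 0.05 and over 1.5-fold. Tumours were also compared by exact permutation; 3 against 3 cultures cannot go below p = 0.1 and were not.

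The genes and lists were chosen with earlier results of these data known. By rule, every DE gene was named, with values per library for up to 8 with the largest difference in each comparison and for Trp53, Cdkn1a, Mdm2, Bax and Bcl2l1; lists were counted, with the 2 largest changes each way. Some results of the lists are not reported here. Alternatives were the scale, voom, weights, centring, fewer groups, a replicate block and leaving out each library. Exons of Bad, Bak1, Bax, Bcl2, Bid, Cdkn1a, Ddb2, Ei24 and Rrm2b overlap another gene by over 5% (GENCODE M21); whether counting used strand is not given in the sources used here, so reads there cannot be told apart.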

Additional observations from a re-analysis of the deposited data

Results flagged for a closer look

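Dixon's test was applied to 72 sets of 4 values, which are 18 genes in the same 4 tumour groups. In 7 of the 72 sets, 1 tumour stood apart from the others. The sets share tumours and are not independent, so their number cannot be held against a rate by chance. NT replicate 4 was the high tumour for Mdm4 (61643 normalised read counts), Cdkn2a (3004), Zmat3 (9302) and Ei24 (9479). DkkMo replicate 4 was high for Rrm2b (729.9), combination replicate 3 was high for Rrm2b (112), and DRB replicate 4 was low for Bax (150.1). The other combination tumours had no read of Rrm2b, so the test was bound to flag that set.

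The other results named here are differences between culture conditions, each tested in limma as a difference of log2 differences, stress minus log phase. For DkkMo minus scrMo they were -1.06 for Bmf, -1.14 for Ephx1, 1.10 for Plk3, -0.78 for Ccng1 and -0.76 for Btg2. For scrMo minus NT they were 1.30 for Bmf, -0.63 for Bcl2l1, 1.34 for Ephx1, 1.25 for Trp53inp1, -1.62 for Plk3, -0.65 for Mdm2, 1.38 for Ccng1, 0.74 for Dcxr, -0.79 for Plk2, 0.95 for Rrm2b, 0.61 for Bcl2 and 0.84 for Btg2. For DkkMo minus NT they were -0.59 for Bcl2l1, 0.96 for Trp53inp1, 0.59 for Ccng1, -0.61 for Plk2 and 0.70 for Rrm2b.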

How the results depend on the processing

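Values of single genes were recomputed under other settings only for genes already called DE in the results above. Of these 1194 values, 1145 kept their direction and side of the threshold, 49 fell under it and 0 changed sign. Genes called only under another setting are not in this count. Dropping the fold, or a filter that had removed 0 genes, could not end a call, so values under those settings were bound to be kept. Counts of DE genes moved by over 1.5 times as follows. On log2 of the count plus 1 there were 4 between DkkMo and scrMo in log phase, 1 under stress, 6 between scrMo and NT in log phase, 8 between DkkMo and NT under stress and 0 between the combination and DRB. By limma voom there were 4, 1, 6, 8 and 0 for the same comparisons and 4 between DkkMo and NT in log phase. With array weights there were 1 between DkkMo and NT in log phase, 3 between the combination and DRB and 3 for the change of DkkMo minus NT between conditions. With only the groups compared there were 3 between the combination and DRB, and with centred libraries 0. By adjusted p without the fold, there were 17 and 14 between DkkMo and scrMo in log phase and under stress, 19 and 22 between scrMo and NT, 13 and 24 between DkkMo and NT, 29, 23 and 27 between stress and log phase in NT, scrMo and DkkMo, and 13, 22 and 15 for the changes of DkkMo minus scrMo, scrMo minus NT and DkkMo minus NT between conditions. In the same order, the shares of all genes that passed were 23.5 and 20.9%, 26.4 and 46.8%, and 9.81 and 41.7%. They were 65.6, 58.8 and 65.6% between stress and log phase, and 22.2, 46.0 and 29.1% for the changes between conditions. For the other settings, and for the libraries left out below, no share of all genes is given, so those counts describe the calls only. The cause of the moves in the counts was not tested, other than that the setting by adjusted p drops the fold.

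Leaving out 1 library at a time gave 2 to 3 and 0 to 3 between DkkMo and scrMo in log phase and under stress, 3 to 4 and 10 to 11 between scrMo and NT, 1 to 3 and 4 to 6 between DkkMo and NT, and 10 to 12, 8 to 11 and 7 to 10 between stress and log phase in NT, scrMo and DkkMo. It gave 5 to 7, 11 to 13 and 2 to 5 for the changes of DkkMo minus scrMo, scrMo minus NT and DkkMo minus NT between conditions. Between DkkMo and NT in log phase, 1 gene was DE without NT replicate 3 (Gdf15) or without DkkMo replicate 1 (Eda2r). For the change of DkkMo minus NT, 3 were DE without log-phase NT replicate 3, stress NT replicate 2 or stress DkkMo replicate 2, and 2, Rrm2b and Trp53inp1, without log-phase DkkMo replicate 1. In tumours it gave 0 to 1 between DRB and NT, 0 to 2 between the combination and DRB, and 0 to 0 in the other comparisons.

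With the replicate number as a block the counts were 2 and 0 for DkkMo against scrMo in log phase and under stress, 3 for scrMo and 2 for DkkMo against NT in log phase, and 9 and 9 between conditions with scrMo and DkkMo, as without it, and no call changed. Whether the numbers pair the samples is not known. In log phase the deviations of DkkMo and scrMo libraries of the same number correlated at -0.05 to 0.62, with 2 of 3 pairs above 0.1. The mean was 0.38 for the same number and -0.18 for different numbers. Tumour numbers do not match between groups, so none was paired. In tumours, 18 of 41 genes had a value, and the spread within groups was wide.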
